A study of Triticum aestivum with 12 samples.

Results

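Homeobox genes were taken from the wheat gene table by their Pfam domain descriptions: 273 of its 124118 genes were described with a homeobox, a homeobox KN, a KNOX or a BELL-type domain, and 209 of these had at least 10 counts summed over the 12 libraries. The 209 genes comprised 33 KNOX genes, which carry a KNOX domain, 33 BELL genes, which carry the domain typical of that family, and 143 other homeobox genes. A filter on low counts left 171 of them for testing, namely 28 KNOX, 30 BELL and 113 other genes. A gene that is silent in one group passes such a filter through the groups in which it is high, so the counts of tested genes below describe those genes only. RNA was sequenced from the part of the seedling above the roots, from untreated wheat (Triticum aestivum) grown for 2 months after germination. Wild type (WT) was compared with 3 lines, C20, C22 and C40, that overexpress TaSIP1ΔC, a form of TaSIP1 marked ΔC in the labels, and each of the 4 groups had 3 libraries. The sources used here do not name the promoter of the transgene, no gene identifier in the files is paired with TaSIP1, and no line carrying an empty vector was used here, so the transgene itself was not checked. The labels do not say whether replicates were separate plants, so p-values reflect only how far these samples spread, and that spread may be technical.

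KNOX and BELL proteins belong to one superclass of homeodomain transcription factors and work as pairs: a KNOX protein binds a BELL protein, and in Arabidopsis this pairing carries the KNOX partner into the nucleus. Class I KNOX genes such as maize knotted1 keep cells of the shoot meristem undetermined, are switched off where a leaf forms, and raise cytokinin while lowering gibberellin, whereas class II genes are active in differentiating organs. The other homeobox families act elsewhere in the shoot, HD-Zip III genes in leaf polarity and vessels, HD-Zip IV genes in the epidermis, HD-Zip I and II genes in responses to drought and shade, and WOX genes in stem cell niches, as known mainly from Arabidopsis. The class of each KNOX gene is not annotated in the files, and the genes are named here by their identifiers, since the files pair none with a symbol.

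Counts per library summed to between 25622422 and 43532179. Levels are given in CPM, that is, as counts over each library's TMM-scaled total, and levels of different genes are compared only as CPM per kb of gene length. C20 replicate 3 and C40 replicate 1 stood apart from the other line libraries in most marks of dividing cells. The 303 core histone genes, marks of dividing cells, gave a sum of 1145 to 1302 CPM in WT and of 5018 to 12601 CPM in 7 line libraries, against 1491 CPM in C20 replicate 3 and only 1157 in C40 replicate 1. The 7 libraries also lay above WT for linker histone (1071 to 2122 against 275 to 496 CPM), MCM (93.8 to 773 against 3.99 to 5.80 CPM) and cyclin genes (389 to 638 against 264 to 281 CPM). Kinesin sums overlapped, at 928 to 1649 CPM in the 7 libraries and 837 to 1115 CPM in WT. C40 replicate 1 was above WT for cyclin (334 CPM) and MCM genes (8.53 CPM) and below it for kinesin genes (781 CPM). The 108 chlorophyll a/b-binding genes, marks of green tissue, gave 81912 to 123260 CPM in WT. Those 7 line libraries ranged from 24850 to 71785 CPM, C40 replicate 1 had 57380 and C20 replicate 3 had 127350. For the 18 Rubisco small subunit genes, WT lay at 45856 to 63605 CPM. Here the same 7 libraries held 9607 to 29213 CPM, C40 replicate 1 held 21759 and C20 replicate 3 held 48281. Green tissue was thus present in every library, but both marks lay below WT in all line libraries except C20 replicate 3. The part of green tissue in the levels below was not tested. Fewer cells of a type and less RNA per cell cannot be told apart in such bulk samples. The sources used here do not give the genome build or whether counting used strand, so positions are those of the count table, overlapping genes are uncertain, and near-identical copies on the A, B and D chromosomes may share reads. Only 2 of the 209 genes overlapped another gene, both BELL genes with a neighbour on the opposite strand that held 0 or 1 count in all.

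Most changed KNOX genes rose and most changed BELL genes fell. In the mean of the lines against WT, 9 of 28 tested KNOX genes rose and 3 fell, and 3 of 30 BELL genes rose and 11 fell, by the quasi-likelihood test of edgeR, Benjamini-Hochberg adjusted over all 75788 tested genes at an adjusted p of at most 0.05. The 26 changed genes made up 44.8% of the 58 tested, beside 23.2% of all tested genes, of which 11.5% rose and 11.7% fell. The median log2 fold change was 1.85 for KNOX and -0.30 for BELL genes, beside 0.07 for all tested genes. The KNOX median includes genes with no count in WT, whose fitted values are no measure of size. Of the KNOX genes that rose, TraesCS4A01G256700, TraesCS4D01G058000, TraesCS2B01G268200 and TraesCS2D01G256400 were nearly absent in WT and C20 and passed the filter through C22 and C40. The KNOX counts and the 44.8% rest in part on that filter. Without C20 replicate 1 neither TraesCS4A01G256700 nor TraesCS4D01G058000 was called. Among the other homeobox genes 19 rose and 10 fell of 113, or 25.7%, close to the share of all genes. These counts rested on the WT libraries: 15, 11 or 16 KNOX and BELL genes and 8, 4 or 7 other homeobox genes passed without WT replicate 1, 2 or 3. Without both C20 replicate 3 and C40 replicate 1, 39 KNOX and BELL genes (16 higher, 23 lower) and 61 others (50 higher, 11 lower) passed. The share of all tested genes called with libraries left out was not counted, so these numbers are not read as particular to homeobox genes.

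**Figure D1:**
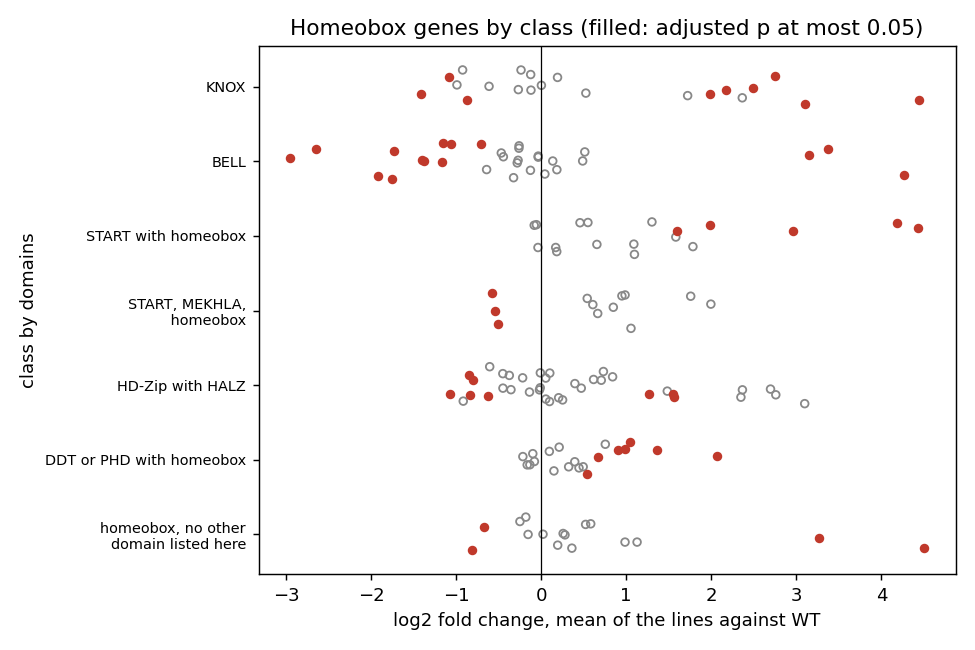
Log2 fold change of the mean of the 3 lines against WT for each homeobox gene, by class of domains, with filled points for an adjusted p of at most 0.05; each point is 1 gene, and vertical scatter within a class only separates points. The plot holds the 155 of 171 tested genes with more than 3 counts over WT, without the 1 gene that has a homeobox KN domain alone; BELL points lie mostly left of 0 and START points without MEKHLA mostly right of 0.

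In 9 KNOX genes WT and C20 had next to no transcripts, while every library of C22 and C40 held them. They are the 9 of 28 tested KNOX genes with at most 10 counts summed over WT, a group formed after their values were seen and therefore given without a test as a group. Summed over the 3 libraries they held 0 to 10 counts in C20, 90 to 766 counts in C22 and 39 to 1057 counts in C40. Genes so low in WT and C20 came through the filter on low counts by way of C22 and C40, so that all 9 passed in C22 and in C40 and none in C20 was largely set by this choice, and nothing is read from it beside the 18%, 18.6% and 2.46% of all tested genes that passed in C22, C40 and C20.

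One of them, TraesCS4A01G256700, is a gene with both KNOX domains, the ELK domain and the homeobox, on chromosome 4A at 569477449 to 569484409, plus strand. It had 0, 0 and 0 CPM in WT replicates 1, 2 and 3, and 0.0365, 0 and 0 CPM in C20. In C22 it had 8.39, 4.20 and 8.80 CPM, and in C40 11.05, 7.001 and 9.56 CPM. The libraries of C22 and C40 all lay above those of WT and C20, and C22 and C40 overlapped. A count of 0 allows up to 3 counts, which is 0.0825 to 0.103 CPM in a single WT library. Set against 3 counts for all of WT, the floor used here, the gene was at least 237-fold higher in C22 (adjusted p = 0.00113) and at least 300-fold higher in C40 (adjusted p = 0.000611). A gene with the same domains on chromosome 4D at 32939863 to 32947102, minus strand, TraesCS4D01G058000, had 0 CPM in each WT library, 0.0730, 0 and 0 CPM in C20, 3.95, 1.80 and 3.36 CPM in C22 and 6.80, 3.40 and 5.43 CPM in C40. It too was absent or nearly so in the 6 libraries of WT and C20, and it was at least 99.5-fold higher in C22 (adjusted p = 0.00236) and at least 170-fold higher in C40 (adjusted p = 0.00140). Whether the pair are copies of one gene on different chromosome sets is not annotated in the files.

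The KNOX genes of chromosome group 2 followed the same division and differed further between C22 and C40. TraesCS2A01G267400 (2A, 426376519 to 426381129, minus strand) had 0 CPM in all WT and C20 libraries, 3.76, 1.99 and 3.03 CPM in C22 and 7.08, 7.20 and 7.48 CPM in C40. TraesCS2B01G268200 (2B, 362018342 to 362022349, plus strand) had 0, 0.0314 and 0.0343 CPM in WT, 0, 0.207 and 0.135 CPM in C20, 4.47, 1.74 and 3.05 CPM in C22 and 13.3, 8.44 and 11.4 CPM in C40. In TraesCS2D01G256400 (2D, 310300955 to 310305105, minus strand) the values were 0.0275, 0.0314 and 0.103 CPM in WT, 0.256, 0.0295 and 0.0450 CPM in C20, 2.60, 1.48 and 2.08 CPM in C22 and 8.86, 5.56 and 8.79 CPM in C40. In all 3 genes every C40 library lay above every C22 library, and every C22 library above every WT and C20 library. The 2A gene was at least 95.2-fold higher than WT in C22 (adjusted p = 0.00155) and at least 235-fold higher in C40 (adjusted p = 0.000833). For the 2B gene, with 2 counts over WT, the ratio to WT was 150 in C22 (exact 95% counting interval 41.1 to 1240; adjusted p = 0.00218) and 540 in C40 (149 to 4470; adjusted p = 0.000833). The 2D gene rose by 5.20 ± 0.66 (SE) on the log2 scale in C22 (adjusted p = 0.00269) and by 7.11 ± 0.67 in C40 (adjusted p = 0.000944). Such intervals and floors take in counting error and no other.

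The 4 scarce KNOX genes of chromosome group 1 were at lower levels in the same libraries; they lie outside the rule for named genes and were chosen after their values were seen. TraesCS1A01G072700 and TraesCS1A01G072800, next to each other on 1A with 290 kb between them, had 0 counts in all 6 libraries of WT and C20. TraesCS1A01G072800 reached 1.70, 0.631 and 2.08 CPM in C22 and 0.554, 1.18 and 3.17 CPM in C40, at least 49.7-fold (adjusted p = 0.0121) and at least 53.2-fold (adjusted p = 0.0101) above the WT floor. TraesCS1A01G072700 was at least 27.8-fold higher in C22 and at least 13.3-fold higher in C40. TraesCS1B01G091700 (0.0275, 0 and 0.171 CPM in WT, 0.537 to 3.08 CPM in C22 and 0.708 to 2.67 CPM in C40) and TraesCS1D01G075600 (0, 0 and 0.103 CPM in WT, 0.821 to 2.09 CPM in C22 and 0.708 to 1.58 CPM in C40) had 0 counts in C20.

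The test of any difference between the lines, a contrast that leaves out the WT mean although the WT libraries enter the estimate of spread, called 9 of 28 KNOX genes, 0 of 30 BELL genes and 3 of 113 other homeobox genes, beside 2.49% of all tested genes. At an unadjusted p under 0.05 the BELL count was 6 of 30, beside 13781 of all 75788 tested genes. Of the 9 KNOX genes that differed between lines, 8 belong to the 9 with at most 10 counts in WT. These 8 came through the filter by way of C22 and C40, so that a difference from C20 was largely set by this choice. Nothing is therefore read from the KNOX count beside the 2.49%. The adjusted p was 0.00242 for TraesCS4A01G256700, 0.00283 for TraesCS2A01G267400, 0.00485 for TraesCS2D01G256400, 0.00526 for TraesCS2B01G268200 and 0.0117 for TraesCS4D01G058000. In these 5 genes the calls against WT in C22 and in C40 held in all 10 alternatives run for each, the omission of any single WT library included. They held at most 5 counts over all of WT, so WT stays near 0 whichever library is left out. That stability was largely set by the same choice and is not read as support.

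Set beside the marks of cell division, these KNOX genes were not all alike. C40 replicate 1, whose core histone sum of 1157 CPM lay within the range of WT, had the highest level of the 3 C40 libraries for TraesCS4A01G256700, TraesCS4D01G058000, TraesCS2B01G268200 and TraesCS2D01G256400. It had the lowest for TraesCS2A01G267400, TraesCS1A01G072800, TraesCS1B01G091700 and TraesCS1D01G075600, in which the C40 libraries ranked as their core histone sums did, and lay between the others for TraesCS1A01G072700. In C22 the order was the other way round. Replicate 2 had the highest core histone sum of that line, 9216 CPM against 5977 and 6210 CPM, and the lowest level of each of the 9 genes. C20 replicate 2, with the highest core histone sum of all libraries (12601 CPM), had at most 0.207 CPM of any of the 9 genes. The part of dividing cells in these levels was not tested. Another list was also higher in C22 and C40. The 87 MADS genes with a K-box, the family of most floral organ identity genes, summed to 291 to 353 CPM in WT, 278 to 330 CPM in C20, 431 to 453 CPM in C22 and 436 to 578 CPM in C40, with the highest sum in C40 replicate 1. Of these 87 genes, 16 were at 0 counts in WT, 16 in C20, none in C22 and 4 in C40. Of the 58 tested, 26 rose and 4 fell in C22, 14 rose and 2 fell in C40, none passed in C20, and 16 differed between lines. These are 51.7%, 27.6%, 0% and 27.6% of the 58, beside 18%, 18.6%, 2.46% and 2.49% of all tested genes. A MADS gene at 0 counts in WT and C20 can pass the filter only by way of C22 or C40. How many of the 58 did so was not counted, so these shares are not read against those of all tested genes. In C20, 12 of the 58 had an unadjusted p under 0.05, beside 20211 of all 75788 tested genes. The part of floral or other cell types in the KNOX result was not tested.

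**Figure D2:**
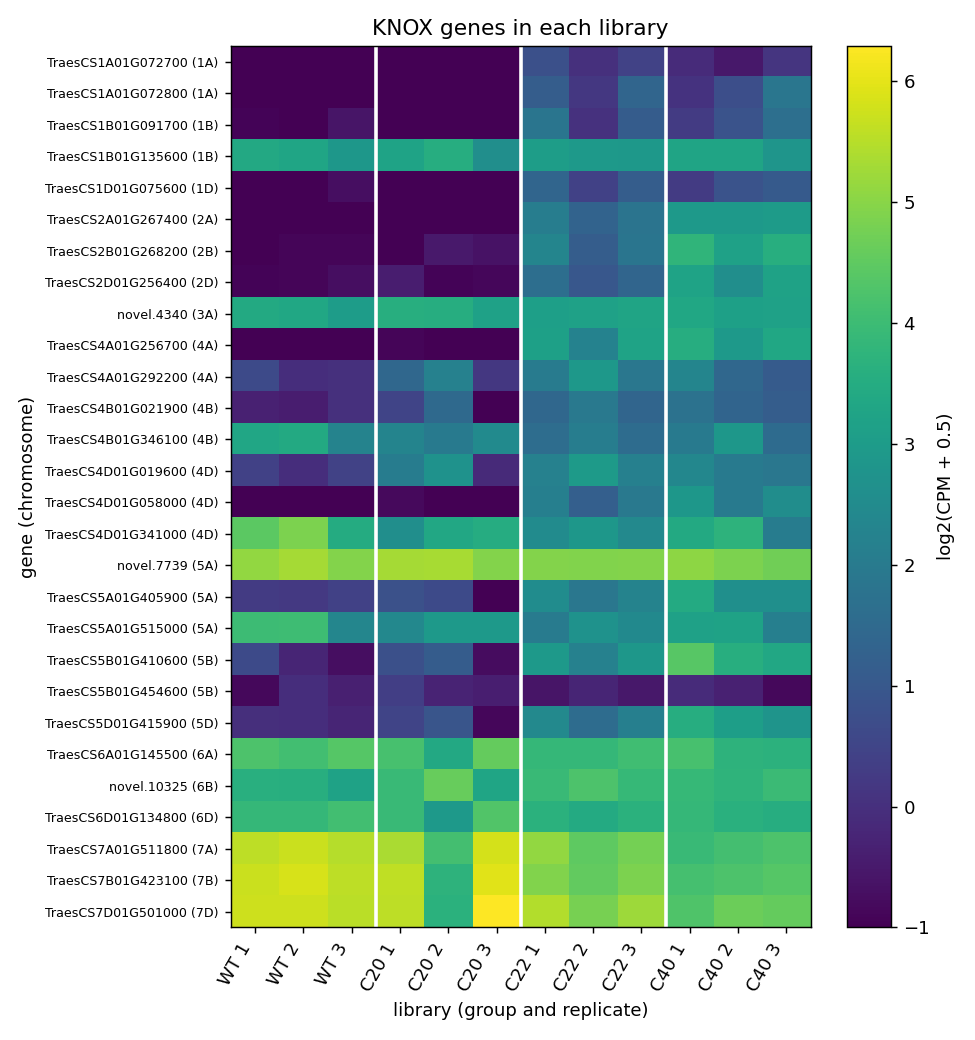
Levels of the 28 tested KNOX genes (one gene a line, with its chromosome, in order of position) in the 12 libraries, as log2(CPM + 0.5) by colour, with white lines between WT, C20, C22 and C40; genes are to be compared within a line, since length is not taken into account. The genes of 1A, 1D, 2A, 2B and 2D, TraesCS1B01G091700, TraesCS4A01G256700 and TraesCS4D01G058000 are at or near the bottom of the scale in all 6 libraries of WT and C20 and above it in those of C22 and C40.

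Another 5 KNOX genes rose from low levels in WT. TraesCS5B01G410600 (5B, 586275616 to 586280039) had 1.04, 0.345 and 0.103 CPM in WT, 1.21, 1.68 and 0.0900 CPM in C20, 7.07, 4.07 and 6.74 CPM in C22 and 20.7, 11.5 and 9.87 CPM in C40. All libraries of C22 and C40 lay above WT, whereas those of C20 lay on either side of it. Its log2 fold change was 3.10 ± 0.75 (SE) in the mean of the lines (adjusted p = 0.0175), 3.54 ± 0.82 in C22 (adjusted p = 0.0183) and 4.77 ± 0.85 in C40 (adjusted p = 0.00655). TraesCS5D01G415900 behaved alike, with 0.436 ± 0.0817 (SD, n = 3) CPM in WT, and a log2 fold change of 3.09 ± 0.68 in C22 (adjusted p = 0.0155) and 4.27 ± 0.70 in C40 (adjusted p = 0.00489), and it differed between lines (adjusted p = 0.0494). TraesCS5A01G405900 had 0.732 ± 0.0832 CPM in WT and 4.12 ± 3.22 (SD, n = 9) CPM over the lines, with a log2 fold change of 1.99 ± 0.65 in the mean of the lines (adjusted p = 0.0481). In all 3 genes C20 replicate 3 lay below every WT library.

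TraesCS4D01G019600 and TraesCS4A01G292200 were also higher in C20 replicates 1 and 2. TraesCS4D01G019600 had 0.825, 0.471 and 0.857 CPM in WT, 3.65, 6.14 and 0.405 CPM in C20, 4.08, 7.39 and 4.04 CPM in C22 and 4.65, 3.40 and 3.20 CPM in C40. Of the 9 line libraries C20 replicate 3 alone did not lie above WT. The log2 fold change in the mean of the lines was 2.49 ± 0.63 (adjusted p = 0.0210) for this gene and 2.17 ± 0.58 (adjusted p = 0.0250) for TraesCS4A01G292200, whose levels were 0.677 ± 0.319 (SD, n = 3) CPM in WT and 3.20 ± 1.84 (SD, n = 9) CPM over the lines. Without WT replicate 1, 2 or 3 neither passed, nor did TraesCS5D01G415900 and TraesCS5A01G405900, and TraesCS5B01G410600 did not pass without WT replicate 2 or 3, all in the mean of the lines. The call of TraesCS5A01G405900 was lost in 13 of 20 alternatives, among them the replicate block and the omission of any C22 or C40 library.

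The most abundant KNOX genes of WT per kb were 3 genes of chromosome group 7, and each of these had lower values in every C40 library than in any WT library. TraesCS7A01G511800 (7A, 699290623 to 699294092) had 46.6, 51.7 and 43.9 CPM in WT, 40.5, 16.8 and 56.3 CPM in C20, 33.8, 21.8 and 26.7 CPM in C22 and 14.8, 16.9 and 18.8 CPM in C40. All libraries of C22 and C40 lay below WT, whereas C20 replicate 3 lay above it. The log2 fold change was -0.87 ± 0.27 in the mean of the lines (adjusted p = 0.0431) and -1.49 ± 0.36 in C40 (adjusted p = 0.0197). TraesCS7B01G423100, at 51.9 ± 5.19 (SD, n = 3) CPM in WT, had a log2 fold change of -1.47 ± 0.43 in C40 (adjusted p = 0.0389) and did not pass in the mean of the lines (adjusted p = 0.0641). TraesCS7D01G501000 had 50.7 ± 3.95 CPM in WT and 19.0, 24.5 and 23.4 CPM in C40, and did not pass in C40 (adjusted p = 0.107). The call of TraesCS7A01G511800 in the mean of the lines was lost in 11 of 20 alternatives, the omission of each WT library among them, and its highest adjusted p was 0.137.

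TraesCS4D01G341000 and TraesCS4B01G346100 were the other KNOX genes that fell. TraesCS4D01G341000 had 21.4, 28.3 and 10.7 CPM in WT, 5.55, 9.77 and 11.02 CPM in C20, 5.17, 6.79 and 4.92 CPM in C22 and 10.2, 12.6 and 3.69 CPM in C40. WT replicate 3 overlapped the upper values of C20 and C40. The log2 fold change in the mean of the lines was -1.41 ± 0.35 (adjusted p = 0.0188), and it was -1.09 ± 0.31 (adjusted p = 0.0305) for TraesCS4B01G346100, which had 7.97 ± 3.18 (SD, n = 3) CPM in WT and 3.81 ± 1.41 (SD, n = 9) CPM over the lines. Neither passed without WT replicate 1 or without WT replicate 2, and TraesCS4B01G346100 not without C22 replicate 1 or 3. Other abundant KNOX genes did not pass in any contrast, among them an unnamed gene on 5A at 181399258 to 181403491 (34.5 ± 4.36 CPM in WT and 31.8 ± 4.90 CPM over the lines, log2 fold change -0.12 ± 0.15), TraesCS6A01G145500 (-0.27 ± 0.22) and TraesCS6D01G134800 (-0.24 ± 0.24).

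The make-up of KNOX transcripts differed between groups while the ranges of their total overlapped. Summed KNOX levels were 251 to 320 CPM in WT, against 183 to 318 CPM over all lines. Per kb of gene length, genes of chromosome group 7 held 55.1% to 60.1% of the KNOX total in WT, 29.8% to 66.8% in C20, 39.4% to 45.9% in C22 and 20.9% to 30.8% in C40. The 3 genes of group 2 held at most 0.0595% in WT, 0.0597% to 0.171% in C20, 2.78% to 4.55% in C22 and 9.64% to 13.3% in C40. Groups did not overlap for the group 2 share, and for the group 7 share only C20 overlapped with others. Genes of group 5 held 7.27% to 11.1% in WT and 17.4% to 26.6% in C40. These shares are descriptions of the same counts as tested above and carry no test of their own.

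**Figure D3:**
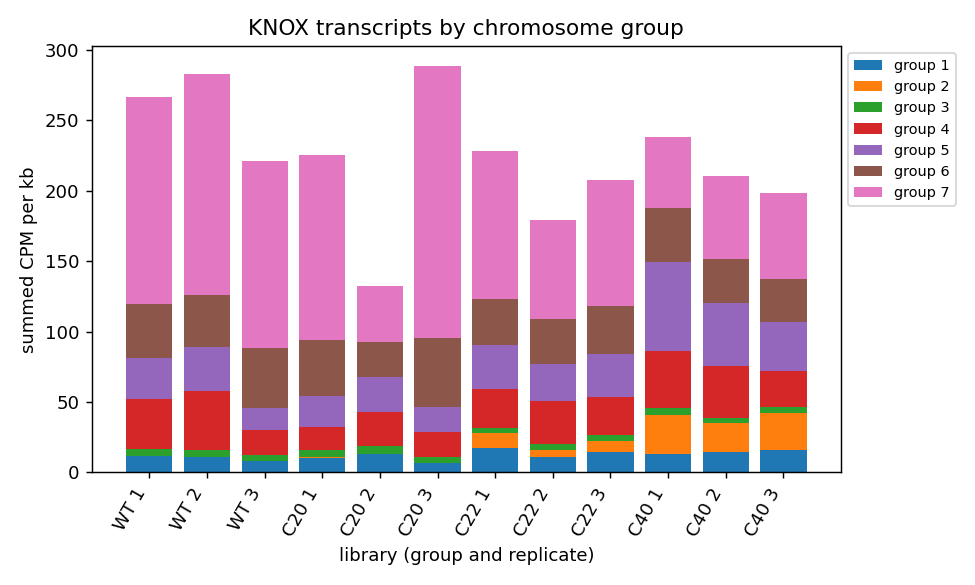
Summed KNOX levels per library as CPM per kb of gene length, stacked by chromosome group over the A, B and D chromosomes. The share of group 7 is 55.1% to 60.1% in WT and 20.9% to 30.8% in C40, and the share of group 2, next to nothing in WT and C20, is 9.64% to 13.3% in C40.

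TraesCS7D01G501000, with the highest level per kb of all KNOX and BELL genes over the 12 libraries, was used to look for genes of like pattern outside the homeobox genes. Over the 12 libraries the highest Pearson correlations of log2 CPM were those of TraesCS6A01G039200 (r = 0.98, with no described domain), TraesCS6D01G065100 (r = 0.98, a terpene synthase), TraesCS5B01G561300 (r = 0.97, of the LOG-type family of cytokinin-activating enzymes by its domain), TraesCS5B01G010900 (r = 0.97) and TraesCS5B01G089700 (r = 0.97). These were the highest of all tested genes, so they describe the pattern only.

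BELL genes were mostly lower in the lines, 22 of the 30 tested having a negative fold change. Their summed level was 898 to 981 CPM in WT, 352 to 609 CPM in 7 line libraries, 792 CPM in replicate 3 of C20 and 675 CPM in replicate 1 of C40, so every line library lay below WT. In 12 of 30 tested genes all 9 line libraries lay below all WT libraries, beside 8.13% of all tested genes, and in none did all 9 lie above, beside 5.95%. In C22 3 BELL genes rose and 10 fell, in C40 1 rose and 10 fell, and in C20 1 fell. These are 43.3%, 36.7% and 3.33% of the 30, beside 18%, 18.6% and 2.46% of all tested genes. Of all tested genes 8.56%, 8.8% and 1.02% were lower in C22, C40 and C20, and 9.48%, 9.81% and 1.44% higher. The C20 share of BELL genes was thus near that of all genes. At an unadjusted p under 0.05 the C20 count was 18 of 30, beside 20211 of all 75788 tested genes. The BELL median log2 fold change in C20 was -0.51, in C22 -0.38 and in C40 -0.24. The 3 contrasts share the WT libraries. None of the 30 passed the test for a difference between lines.

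The largest BELL fall was that of TraesCS4A01G469900 on 4A (731338027 to 731340484, minus strand). It had 14.1, 16.2 and 26.4 CPM in WT, 3.21, 0.620 and 4.99 CPM in C20, 3.15, 3.13 and 3.48 CPM in C22 and 1.42, 1.31 and 1.89 CPM in C40. All 9 line libraries lay below WT, those of C40 lowest together with C20 replicate 2. The log2 fold change was -2.95 ± 0.39 in the mean of the lines (adjusted p = 0.00166), and this was the only homeobox gene of all 171 tested to pass in C20, at -2.70 (adjusted p = 0.0355). That C20 call was lost without WT replicate 1, 2 or 3, without C20 replicate 1 and with C20 and WT fitted alone, with adjusted p up to 0.162. TraesCS7A01G022600 on 7A (8914752 to 8917151) had 10.6, 14.4 and 19.3 CPM in WT against 0.295 to 3.78 CPM over the 9 line libraries, with a log2 fold change of -2.65 ± 0.47 (adjusted p = 0.00553).

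TraesCS1B01G191800 and TraesCS1A01G183400, both of chromosome group 1, fell together. TraesCS1B01G191800 (1B, 342972636 to 342976850) had 41.0, 46.8 and 39.5 CPM in WT, 14.1, 7.08 and 26.0 CPM in C20, 11.6, 6.98 and 9.48 CPM in C22 and 12.5, 8.41 and 8.32 CPM in C40. The nearest line library to WT was C20 replicate 3, and no library overlapped. Its log2 fold change was -1.91 ± 0.29 in the mean of the lines (adjusted p = 0.00308), -2.18 ± 0.40 in C22 (adjusted p = 0.00893) and -2.12 ± 0.40 in C40 (adjusted p = 0.00821). TraesCS1A01G183400 fell by 1.73 on the log2 scale (adjusted p = 0.00528), from 38.2 ± 3.39 (SD, n = 3) CPM in WT to 11.6 ± 5.02 (SD, n = 9) CPM over the lines. Both genes passed in the mean of the lines under all 20 alternatives.

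Further falls came from the abundant BELL genes of chromosome group 4. TraesCS4B01G063100 had 95.2 ± 7.49 (SD, n = 3) CPM in WT and 42.5 ± 14.0 (SD, n = 9) CPM over the lines, with a log2 fold change of -1.17 ± 0.26 (adjusted p = 0.0130). TraesCS4A01G252100 (-1.15 ± 0.26, adjusted p = 0.0128) and TraesCS4D01G062100 (-1.06 ± 0.21, adjusted p = 0.00822) fell by a like amount. TraesCS4A01G022700 fell by less (-0.71 ± 0.21, adjusted p = 0.0341) and did not pass in C22 (adjusted p = 0.1034) or C40 (adjusted p = 0.1345). In each of these 4 genes all 9 line libraries lay below WT. TraesCS4A01G022700 did not pass when any 1 WT library was left out, and TraesCS4B01G063100 and TraesCS4A01G252100 did not pass without WT replicate 2 or 3. By contrast TraesCS4A01G200800 (34.9 ± 1.90 CPM in WT and 36.3 ± 12.1 CPM over the lines, log2 fold change 0.04 ± 0.29) and TraesCS4B01G114600 (0.18 ± 0.33) did not pass in any contrast; they are the 2 genes that overlap a neighbour on the other strand. TraesCS4D01G279300, another abundant BELL gene with 62.1 ± 2.87 CPM in WT and 39.9 ± 10.1 CPM over the lines, lay below WT in all 9 line libraries and did not pass (adjusted p = 0.0638).

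Among the BELL genes that fell, 3 lay within 1000 kb of a KNOX gene on the same strand. On 4D, TraesCS4D01G340700 (497894922 to 497898536) and the KNOX gene TraesCS4D01G341000 (497944906 to 497949340) were 46.4 kb apart with 2 genes between them, and both fell (log2 fold changes -1.40 and -1.41, adjusted p = 0.0110 and 0.0188); without WT replicate 2 neither passed. On 5A, TraesCS5A01G514700 fell (-1.76 ± 0.31, adjusted p = 0.00511), and the KNOX gene TraesCS5A01G515000, 63.1 kb away, had a log2 fold change of -0.99 that did not pass (adjusted p = 0.0598). On 4B, TraesCS4B01G345600 (-1.38 ± 0.27, adjusted p = 0.00777) and the KNOX gene TraesCS4B01G346100 were 721 kb apart with 4 genes between them, and both fell. In the BELL members of these pairs all 9 line libraries lay below WT, whereas in the KNOX members WT replicate 3 overlapped the lines.

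The 3 scarce BELL genes of chromosome group 7 rose from levels near 0. TraesCS7A01G358300 had 0.110, 0 and 0 CPM in WT, 0.146, 0.797 and 0.135 CPM in C20, 1.74, 3.38 and 1.75 CPM in C22 and 0.0308, 0.589 and 1.46 CPM in C40. C40 replicate 1, the C40 library with the lowest core histone sum, was the only line library within the range of WT. The gene had 4 counts over WT, 34 over C20, 235 over C22 and 66 over C40, and its adjusted p in the mean of the lines was 0.0329. TraesCS7B01G269400 (0 to 0.137 CPM in WT, 0.0900 to 1.23 CPM in the lines, adjusted p = 0.0319) and TraesCS7D01G364500 (0 to 0.165 CPM in WT, 0.0308 to 1.83 CPM in the lines, adjusted p = 0.0461) had the same order of libraries in that C22 replicate 2 was the highest and C40 replicate 1 among the lowest. In the replicates of C20, too, the highest value of all 3 genes was that of replicate 2, the library with the highest core histone sum. The part of dividing cells in these rises was not tested, and none of the 3 genes passed without WT replicate 1 or without WT replicate 2.

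**Figure D4:**
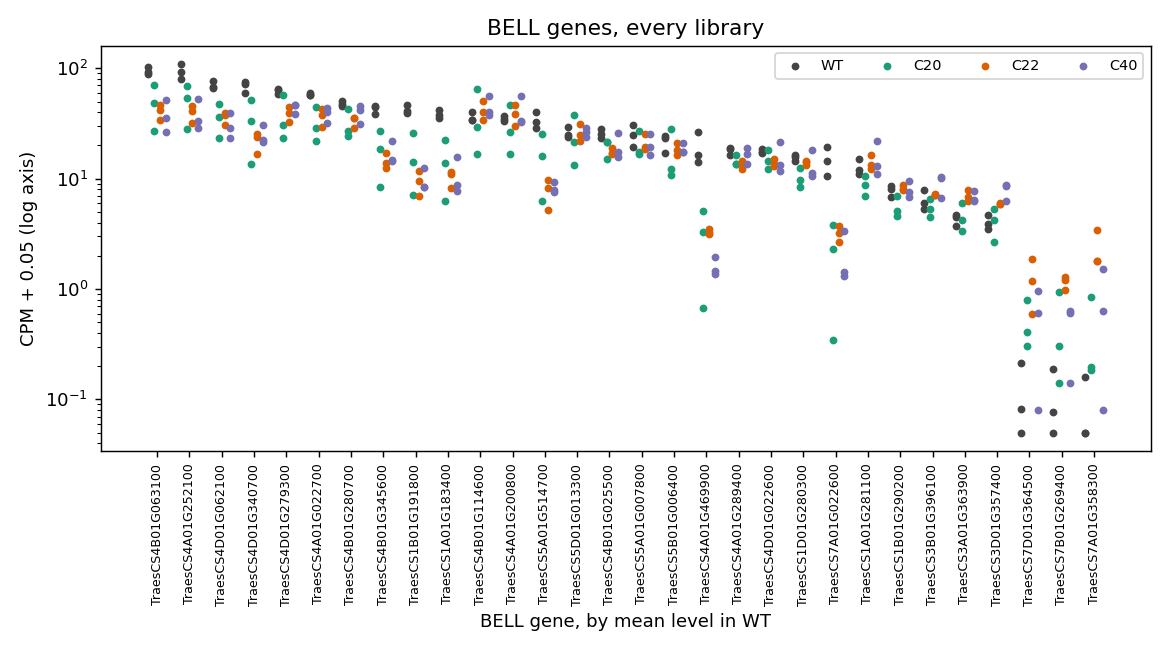
Levels of the 30 tested BELL genes in every library as CPM + 0.05 on a log axis, one point a library coloured by group, with genes ordered by their mean in WT and to be compared within a gene. WT points lie above all 9 line points in 12 genes, and the 3 genes at the right, all of chromosome group 7, have WT points near the bottom.

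Outside KNOX and BELL, the genes with a START domain and a homeobox but no MEKHLA domain, the make-up of HD-Zip IV proteins of the epidermis, included 5 that rose and none that fell among 20 tested of 26. That is 25%, beside 23.2% of all tested genes called in either direction and 11.5% called higher. Their summed level was 126 to 139 CPM in WT, 153 to 301 CPM in 7 line libraries, 119 CPM in replicate 3 of C20 and 85.7 CPM in replicate 1 of C40. Those single libraries were also the lowest of the lines in the core histone sum. Among the other 7 the order was not the same. C20 replicate 1 had 195 CPM here and a core histone sum of 5018 CPM, whereas C40 replicate 3 had 174 CPM here and a core histone sum of 8656 CPM. TraesCS1B01G208400 had 0.302, 0.408 and 0.206 CPM in WT, 3.94, 7.70 and 0.540 CPM in C20, 6.43, 14.5 and 6.50 CPM in C22 and 0.800, 4.42 and 9.07 CPM in C40. All 9 line libraries lay above WT, with C20 replicate 3 and C40 replicate 1 nearest to it, and the log2 fold change was 4.18 ± 0.95 (adjusted p = 0.0142). TraesCS1D01G197300 (0.363 ± 0.0544 CPM in WT and 8.44 ± 6.50 CPM over the lines) rose by 4.43 ± 1.24 on the log2 scale (adjusted p = 0.0286), with C20 replicate 3 below WT at 0.0450 CPM. TraesCS7A01G167900 rose by 2.96 ± 0.65 (adjusted p = 0.0128). None of these 3 genes passed without WT replicate 2 or without WT replicate 3. The 2 START genes with the highest levels per kb, TraesCS2D01G473700 (-0.08 ± 0.20) and TraesCS5D01G320600 (0.17 ± 0.32), did not pass. The part of dividing cells in these values was not tested.

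**Figure D5:**
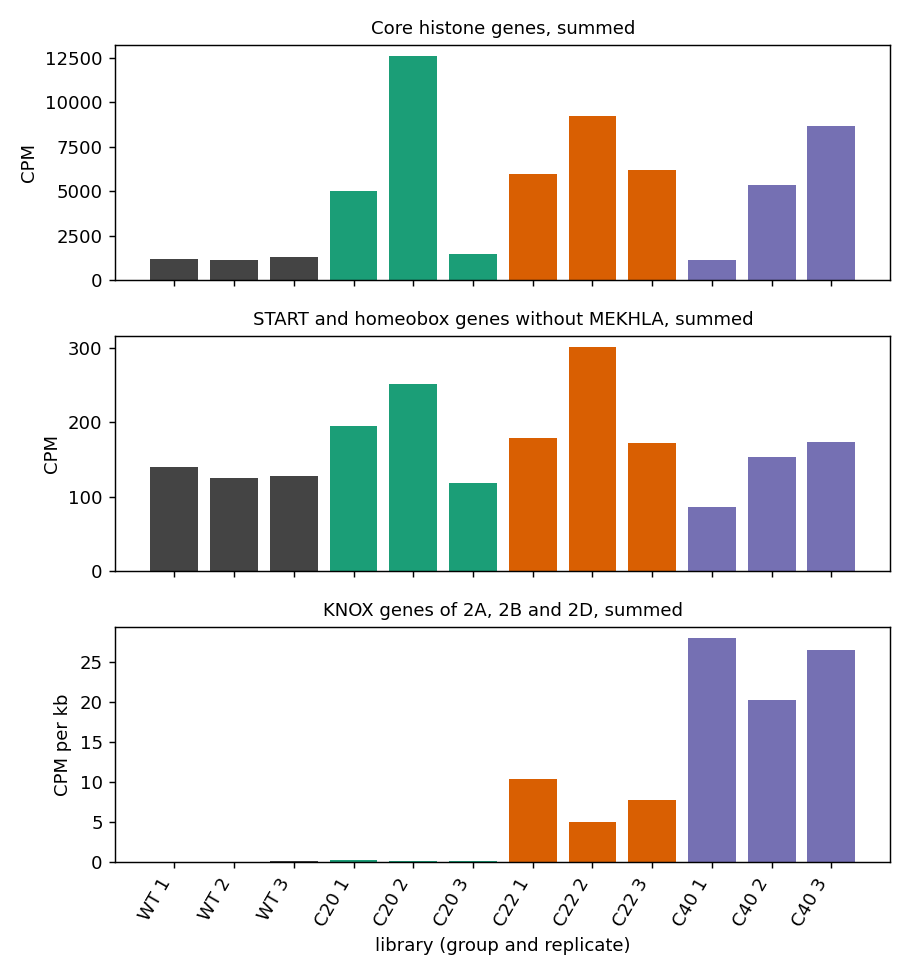
Bars give, per library and from 0, the summed CPM of the 303 core histone genes (top), the summed CPM of the 26 START and homeobox genes without MEKHLA (middle) and the summed CPM per kb of the 3 KNOX genes of group 2 (bottom). C20 replicate 3 and C40 replicate 1 are low in the upper panels, whereas in the bottom panel C40 replicate 1 is the highest of all 12 libraries and the 3 C20 libraries are near 0.

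The 12 genes with START, MEKHLA and a homeobox, the make-up of HD-Zip III proteins, held 3 that fell and none that rose. That is 25%, beside 23.2% of all tested genes called in either direction and 11.7% called lower. TraesCS1B01G173900 had 38.2, 43.3 and 29.7 CPM in WT, 22.7, 23.7 and 15.2 CPM in C20, 25.5, 30.2 and 26.9 CPM in C22 and 26.1, 27.7 and 27.1 CPM in C40. Only C22 replicate 2 overlapped with WT. The log2 fold change was -0.58 ± 0.17 (adjusted p = 0.0306). TraesCS1A01G157500 (-0.54 ± 0.16, adjusted p = 0.0351) and TraesCS1D01G155200 (-0.51 ± 0.16, adjusted p = 0.0450) fell by a like amount, and the median log2 fold change of the 12 genes was 0.76. None of the 3 calls held without WT replicate 1 or without WT replicate 2.

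Among 39 tested genes with a homeobox and the HALZ leucine zipper, as HD-Zip I and II proteins have it, 3 rose and 5 fell, or 20.5% beside 23.2% of all tested genes. The 3 abundant genes of chromosome group 6 fell, with all 9 line libraries below WT. TraesCS6B01G321100 had 213, 225 and 252 CPM in WT, 153, 145 and 170 CPM in C20, 124, 108 and 119 CPM in C22 and 109, 126 and 103 CPM in C40. No line library overlapped with WT, and the log2 fold change was -0.85 ± 0.15 (adjusted p = 0.00501), a call that held in all 20 alternatives. TraesCS6A01G290800 (-0.83 ± 0.18, adjusted p = 0.0117) and TraesCS6D01G272000 (-0.63 ± 0.16, adjusted p = 0.0215; named after its values were seen) fell as well. TraesCS4B01G235300 fell by 1.07 on the log2 scale (adjusted p = 0.0131). The genes that rose were low ones: TraesCS5A01G199300 went from 0.629 ± 0.176 CPM in WT to 1.60 ± 0.671 CPM over the lines (log2 fold change 1.26 ± 0.32, adjusted p = 0.0206), TraesCS5B01G197700 from 0.717 ± 0.250 to 2.14 ± 0.721 CPM (1.55 ± 0.41, adjusted p = 0.0233), and TraesCS2B01G407600 from 0.536 ± 0.218 to 2.16 ± 1.90 CPM (1.56 ± 0.45, adjusted p = 0.0328). None of these 3 passed when any 1 WT library was left out, and neither TraesCS6A01G290800 nor TraesCS4B01G235300 passed without WT replicate 3.

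Of the 20 genes with a homeobox and a DDT or PHD domain, a make-up known in Arabidopsis from partners of chromatin remodelling factors, 7 rose and none fell, or 35% beside 23.2% of all tested genes, of which 11.5% rose. TraesCS3A01G112300 had 1.98, 1.98 and 1.54 CPM in WT, 2.12, 2.72 and 1.62 CPM in C20, 4.72, 5.24 and 5.09 CPM in C22 and 5.14, 3.07 and 4.998 CPM in C40. C20 replicate 3 alone lay within the range of WT. Its log2 fold change was 0.98 ± 0.23 (adjusted p = 0.0146), and it was 1.04 ± 0.25 (adjusted p = 0.0162) for TraesCS3B01G131700 and 2.06 ± 0.50 (adjusted p = 0.0181) for TraesCS2D01G127700. None of the 3 passed without WT replicate 2 or without WT replicate 3. The most abundant genes of the class, TraesCS1D01G403700 (-0.10 ± 0.14) and TraesCS3D01G245800 (-0.08 ± 0.14), did not pass. Among the 21 tested genes with a homeobox and none of these other domains, the class that takes in WOX genes, 4 rose and 2 fell, or 28.6%. Of those that rose, TraesCS1A01G052000 had 0 counts in WT and was at least 21.0-fold higher in the lines, with 0 counts in C20 replicate 3 and C40 replicate 1. An unnamed gene on 1B at 21353815 to 21355020 had 0, 0 and 0.137 CPM in WT and 0.0590 to 3.63 CPM over the 9 line libraries (adjusted p = 0.0114). TraesCS7B01G253500 fell from 24.99 ± 0.743 CPM in WT to 14.7 ± 4.86 CPM over the lines (-0.81 ± 0.16, adjusted p = 0.00898). The single tested gene with a homeobox KN domain alone, on 5B at 624694642 to 624695509, had 0.206 to 0.502 CPM in WT against 0.135 to 0.482 CPM over the lines and did not pass.

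By line, KNOX genes passed in C22 (14 higher, 2 lower) and C40 (13 higher, 2 lower) and not in C20, where 4 of 28 had an unadjusted p under 0.05. Among all tested genes 9.48% were higher and 8.56% lower in C22, 9.81% higher and 8.8% lower in C40, and 1.44% higher and 1.02% lower in C20. An unadjusted p under 0.05 was found in C20 for 20211 of all 75788 tested genes. The median KNOX log2 fold change was 0.04 in C20, 2.64 in C22 and 2.19 in C40, beside 0.03, 0.08 and 0.11 for all tested genes. These counts and medians include the 9 KNOX genes with at most 10 counts over WT, all called in C22 and in C40. Such genes came through the filter by way of those lines, and some have fitted values that are no measure of size. The KNOX numbers for C22 and C40 are therefore not read against those of all tested genes. The other homeobox genes showed 24 higher and 7 lower in C22, 23 higher and 4 lower in C40 and none in C20, where 35 of 113 had an unadjusted p under 0.05 and DESeq2 called 20. Of KNOX and BELL genes DESeq2 called 11 in C20. The C20 counts turned on 1 library: without C20 replicate 3, 21 KNOX and BELL genes and 22 others passed in C20. The share of all tested genes called by DESeq2 or without that library was not counted, so these rises are not read as particular to homeobox genes.

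Genes that work with KNOX and BELL proteins, or downstream of KNOX in other species, were counted from lists set by domain. They are to be read against the 23.2% of all tested genes called in the mean of the lines, 11.5% higher and 11.7% lower. OVATE proteins, which bind BELL and KNOX proteins in Arabidopsis, had 8 rising and 4 falling genes of 50 tested in the mean of the lines, or 24%, with TraesCS2A01G396600 falling by 1.52 on the log2 scale (adjusted p = 0.00822). LOB/AS2 genes, among them the organ boundary and leaf genes that hold KNOX in check in Arabidopsis and maize, had 8 of 33 higher and 4 lower, or 36.4%, with TraesCS2A01G194500 rising from 3.73 to 13.6 CPM (adjusted p = 0.00725) and TraesCS5B01G150800 falling from 2.84 to 0.643 CPM (adjusted p = 0.00161). Of cytokinin synthesis (IPT) genes 4 of 15 rose and 2 fell, or 40%, and of LOG genes, which release active cytokinin, 4 of 31 rose and 5 fell, or 29%. Cytokinin dehydrogenase genes, which break the hormone down, had 6 of 21 lower and none higher, or 28.6%, with TraesCS3D01G310200 falling from 45.3 to 10.6 CPM (adjusted p = 0.00826). YABBY genes, active in young lateral organs, had 1 of 16 higher in the mean of the lines, or 6.25%. By line 10 were higher and 1 lower in C22 (68.8%, beside 18% of all tested genes), 5 were higher in C40 (31.2%, beside 18.6%), and 6 differed between lines (37.5%, beside 2.49%). None passed in C20, where 2.46% of all tested genes passed. In C20, 2 of the 16 had an unadjusted p under 0.05, beside 20211 of all 75788 tested genes. The median YABBY log2 fold change was -0.07 in C20, 3.69 in C22 and 1.46 in C40. How many of the 16 came through the filter only by way of C22 and C40 was not counted. The YABBY shares by line are therefore not read against those of all tested genes. ZF-HD genes, a separate homeodomain family, had 3 of 18 lower (16.7%), GRAS genes 24 of 94 higher and 9 lower (35.1%), and START genes without a homeobox 1 of 15 lower (6.67%).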

How the data were processed

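The authors deposited a table with raw gene counts and FPKM values, counted with featureCounts 1.5.0-p3, per the submitters' processing notes. Aligner, build and strand setting: not given in the sources used here. Against the counts, the deposited FPKM values carried a factor per library of 0.797 to 1.35, so they had been rescaled between libraries. RNA (1 µg a sample) was extracted with Trizol and made into libraries with the NEBNext Ultra kit, per the labels.

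Counts of all 124118 genes were taken into edgeR 4.0.16 (R 4.3.3). Genes were filtered with filterByExpr (75788 left) and libraries scaled by TMM, and all 12 libraries went into 1 quasi-likelihood fit of 4 group means. WT was compared with the mean of the 3 lines and with each line, and the lines with each other by an F test of any difference between lines, with Benjamini-Hochberg adjustment over all tested genes and a threshold of 0.05. Standard errors are the log2 fold change over the root of F. Where WT and C20 both held 0 counts the mean of the lines could not be estimated, and such genes are given by line. Folds against 0 counts are lower bounds against 3 counts over the group, and ratios to 1 to 3 counts carry exact 95% intervals.

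Members and lists were chosen with earlier results of these data known. Genes named were every KNOX and BELL gene called in the mean of the lines and the 6 highest per kb. In each other class they were up to 3 rising and 3 falling genes of lowest adjusted p and the 2 highest per kb, with 2 genes per line, 5 between lines and 5 of like pattern. The text names part of these. Replicate pairs differed beyond sampling noise (chi-square per gene 6.87 to 170). The method was tested on simulated data. Alternatives were RLE size factors, DESeq2 1.42.0, 2 other filters, a replicate block, limma 3.58.1 on log2(FPKM + 0.1), calls held to a log2 fold change of 1 or more, a line and WT fitted without the rest, and leaving out each library or both libraries set apart. The 9 line libraries fitted as 1 group, and the settings for single genes by line, were added after seeing the data.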

Additional observations from a re-analysis of the deposited data

Results flagged for a closer look

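In 12 of the 171 tested homeobox genes the change against WT was not the same in all lines. The test was the F test of any difference between lines (edgeR's quasi-likelihood test, adjusted over all tested genes). The 12 are 7.02% of the 171, beside 2.49% of all tested genes. Among them are 8 of the 9 KNOX genes that were at or near 0 in WT and C20. These 8 came through the filter on low counts by way of C22 and C40, so a difference from C20 was largely set by that choice. The 7.02% is therefore not read against the 2.49%. Outside KNOX and BELL 3 of 113 genes differed, or 2.65%, close to the share of all genes. Those of chromosome groups 2 and 4 were TraesCS4A01G256700 (adjusted p = 0.002418), TraesCS2A01G267400 (0.002832), TraesCS2D01G256400 (0.004851), TraesCS2B01G268200 (0.005258) and TraesCS4D01G058000 (0.01166). Of group 1 they were TraesCS1D01G075600 (0.03153), TraesCS1A01G072700 (0.03999) and TraesCS1B01G091700 (0.04846), and another KNOX gene, TraesCS5D01G415900, followed (0.04942). The first 5 also passed with a replicate block (adjusted p up to 0.02112) and without C20 replicate 3 and C40 replicate 1 (up to 0.02396), whereas the last 4 did not pass with the block, nor TraesCS1A01G072700 (0.06705) and TraesCS1B01G091700 (0.0627) without those 2 libraries.

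The other 3 have a homeobox and a HALZ zipper. TraesCS6A01G240400 (adjusted p = 0.0159) had 0.797, 0.534 and 0.892 CPM in WT, 0.183 to 0.585 CPM in C20, 0.129 to 0.284 CPM in C22 and 2.49, 1.70 and 1.83 CPM in C40, so that it was lower than WT in C22 (log2 fold change -1.75, adjusted p = 0.0301) and higher in C40 (1.44, adjusted p = 0.0427). TraesCS6D01G222600 (adjusted p = 0.03786) had 0.118 to 0.482 CPM in C22, 1.83 to 2.99 CPM in C40 and 0.628 to 1.92 CPM in WT. TraesCS2B01G407600 (adjusted p = 0.03563) was higher than WT in C40 by 3.07 on the log2 scale (adjusted p = 0.00576), with 3.04 to 5.32 CPM there and 1.06 to 1.58 CPM in C22. The difference between lines did not pass for TraesCS2B01G407600 with the block (adjusted p = 0.0554), nor for TraesCS6D01G222600 without C20 replicate 3 and C40 replicate 1 (0.07108).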

How the results depend on the processing

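Counts of changed genes depended most on single libraries. The share of all tested genes called was not counted under these alternatives, so the counts are not read as particular to homeobox genes. For the mean of the lines, leaving out 1 library gave 11 to 34 KNOX and BELL genes (26 with all libraries) and 4 to 51 other homeobox genes (29), the lowest without WT replicate 2 and the highest without C20 replicate 3. In C20 the ranges were 0 to 21 (1) and 0 to 22 (0), in C22 11 to 18 (29) and 5 to 16 (31), and in C40 13 to 29 (26) and 6 to 33 (27). With 1 library of a group gone the rest is assumed to vary like the other groups. DESeq2 called 47 other homeobox genes in the mean of the lines, and in C20 11 KNOX and BELL genes and 20 others. A log2 fold change of at least 1 left 16 other genes, and without both C20 replicate 3 and C40 replicate 1 the count was 61, with 5 that differed between lines (3). With a line and WT fitted alone, 0 KNOX and BELL genes passed in C20 and 59 other genes in C22.

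Replicate numbers were not taken to pair the libraries, since not every pair with the same number had residual profiles correlated above 0.1: of 18 such pairs r ran from -0.518 to 0.544 and 9 exceeded it, among them all 6 pairs of replicate 2 libraries (0.138 to 0.544). A fit with the replicate number as a block called 23 KNOX and BELL genes in the mean of the lines, 23 other genes, and 5 KNOX and BELL genes that differed between lines (9).

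Of the single-gene results, 6 changed sign under at least 1 alternative, in 12 cases in all, none of them called. They were the log2 fold changes of the gene with a homeobox KN domain alone (0.0084 with the replicate block, 0.0367 without both libraries set apart, -0.2936 to 0.3838 without single libraries), TraesCS2D01G473700 (-0.1947 to 0.0191 without single libraries) and TraesCS5D01G320600 (-0.0205 to 0.2459), and in C20 those of TraesCS5A01G405900 (-0.0532 with the replicate block, -0.368 to 0.6403 without single libraries), TraesCS2D01G256400 (-0.4895 to 1.7511) and TraesCS7A01G511800 (-0.7449 to 0.028). The cause was not tested. Without C20 replicate 1, C20 held 0 counts of TraesCS4A01G256700 and TraesCS4D01G058000, so their mean of the lines could not be estimated.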

Other observations

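Of the 8 KNOX and BELL genes with too few counts for a test, the BELL genes TraesCS4A01G289500 and TraesCS4D01G022500 had 0 counts in WT and in C20, 7 and 5 counts in C22, and 13 and 10 counts in C40. Each lies next to a tested BELL gene on the same strand, TraesCS4A01G289400 (gap of 83874 bases) and TraesCS4D01G022600 (gap of 50040 bases), neither of which passed in any contrast.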
